A study of Homo sapiens with 12 samples.

Results

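The genes described here encode the parts, the assembling enzymes and the regulators of the cornified envelope, together with other genes of squamous differentiation. They were taken by gene symbol from a list of 50 genes that leaves out keratins and S100 genes. On the arrays, 48 of the 50 had a probe set named for them, 1 each, among 17687 named genes in all. CDSN and SPINK5 were not analysed here.

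RNA was measured in 12 cultures derived from MCF-10A, an immortalised breast epithelial line that forms no tumours. Of the 3 groups, the first was a co-culture of both mutant lines, the second the line with HER2 L755S (a kinase-domain mutation of the receptor HER2) grown alone, and the third the line with PIK3CA E545K (a mutation of the catalytic PI3K subunit) grown alone, with 4 arrays each. All cultures grew in medium with a physiologic EGF level and received nothing further, and they were taken after 7 to 14 days, at the point where digital PCR put the co-cultures at about 75% HER2 L755S and 25% PIK3CA E545K cells. As far as the labels say, each mutation was carried by 1 isogenic line, so the mutation and the line cannot be told apart. An unmutated MCF-10A culture was not analysed here, and higher in one line is the same measurement as lower in the other. The harvest day of each array was not given, and nothing in the labels says whether the 4 cultures of a group were started separately, so p-values measure the spread between these arrays, which may be technical.

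As background, the cornified envelope is the cross-linked protein shell that replaces the plasma membrane of a keratinocyte at the end of its differentiation. Envoplakin, periplakin and involucrin form a scaffold under the membrane, transglutaminases tie small proline-rich (SPRR) proteins, filaggrin and loricrin to it, and lipids are attached outside. Kallikreins later cut the junctions between the dead cells, held back by inhibitors, and grainyhead-like factors, OVOL1 and ZNF750 direct the program. Breast epithelium does not cornify, but MCF-10A cells have a basal epithelial character and share several of these genes with stratified epithelium.

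Values are log2 signals of a probe set, as the submitters deposited them, so a difference of 1 is a doubling. Array medians lay between 6.41 and 6.49, and no pair of arrays was identical (highest correlation 0.9958 across the tested genes). The background level of an array was set at the 95th percentile of its 612 negative control probe sets. It was 6.37 to 6.66 on the co-culture arrays, 6.73 to 7.12 on the HER2 L755S arrays and 6.32 to 6.39 on the PIK3CA E545K arrays, so a signal had to be higher to count in the HER2 L755S group. The median of the controls was 3.5 to 3.58, 3.63 to 3.79 and 3.39 to 3.57 in the same order, also highest in HER2 L755S. The part of this in differences of genes at background was not tested. A gene counted as above background in a group when it passed this level on at least 3 of its 4 arrays. Levels are not compared between genes, since probe sets differ in brightness.

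Most of the cornification genes were not detected in these breast cells. Only 14 of the 48 were above background in at least 1 group (29.2%), against 51.6% of all named genes, and 29 were above background on no array at all. The 10 genes above background in all 3 groups were SPRR1A, the scaffold genes PPL (periplakin) and EVPL (envoplakin), DMKN (the secreted protein dermokine), LYPD3 (the membrane-anchored Ly6 protein C4.4A), TMEM40 (a transmembrane protein), CALML3 (a calmodulin-like protein of epithelia), the protease inhibitors PI3 (elafin) and SLPI, and the transcription factor GRHL2. The other 4 passed in some groups. SPRR1B and CASP14 (caspase-14, the protease that helps to break down filaggrin) were above background in the co-culture and in PIK3CA E545K but on 0 arrays of HER2 L755S. CNFN (cornifelin, an envelope protein) passed on 3 co-culture, 2 HER2 L755S and 4 PIK3CA E545K arrays, and SPRR2D passed on 1 co-culture array, 3 HER2 L755S arrays and 0 PIK3CA E545K arrays. In total 13 genes were above background in the co-culture, 11 in HER2 L755S and 13 in PIK3CA E545K.

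**Figure D1:**
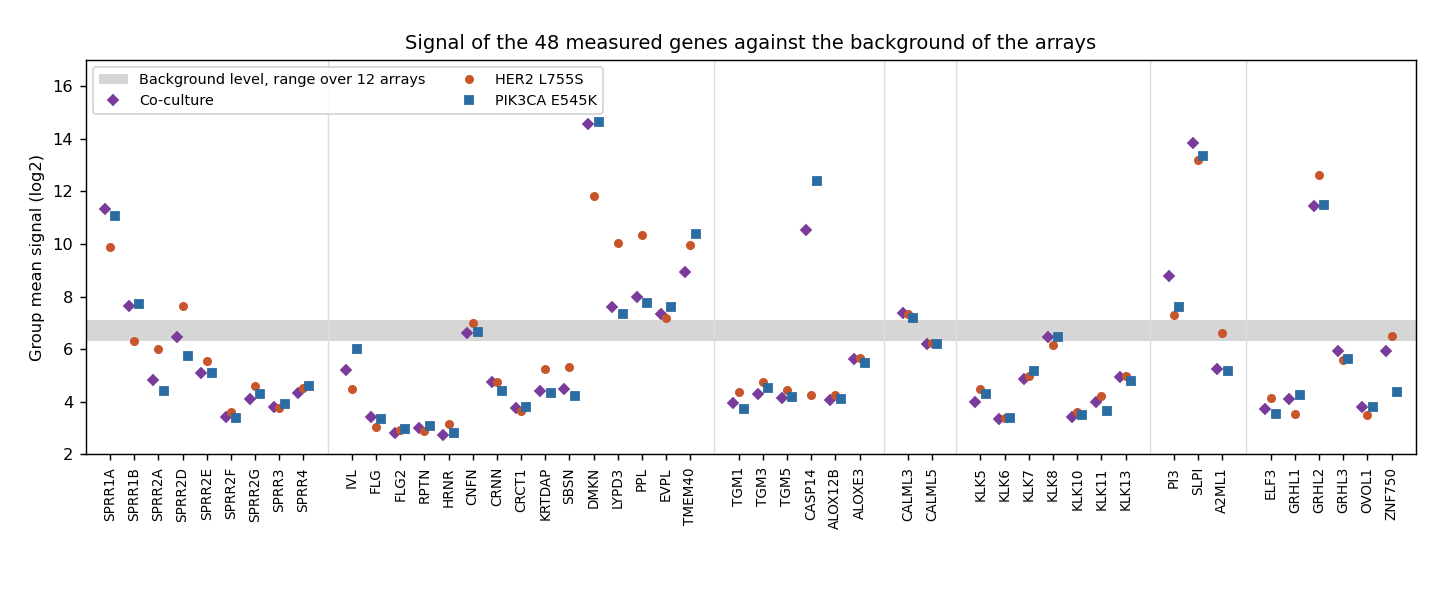
Mean log2 signal (vertical axis) of the 48 measured genes in the co-culture, HER2 L755S and PIK3CA E545K groups (4 arrays each), ordered by role, with the range of the 12 background levels (6.32 to 7.12) as a grey band. Most genes lie under the band in every group; those above it include SPRR1A, DMKN, LYPD3, PPL, SLPI and GRHL2, and CASP14 lies far above it in 2 groups but under it in HER2 L755S.

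The genes at background in every group included the best known markers of late cornification. The late envelope proteins FLG, FLG2, RPTN and HRNR had group means of at most 3.44. TGM1, the transglutaminase best known for envelope cross-linking, averaged 3.95 ± 0.16 in the co-culture, 4.38 ± 0.26 in HER2 L755S and 3.74 ± 0.16 in PIK3CA E545K (SD, n = 4 each), and TGM3 and TGM5 were also at background. So were the barrier lipoxygenases ALOX12B and ALOXE3, all 7 kallikreins (KLK5, KLK6, KLK7, KLK8, KLK10, KLK11 and KLK13) and the factors ELF3, GRHL1, GRHL3 and OVOL1. Involucrin (IVL) was above background on 2 PIK3CA E545K arrays and KLK8 on 2 PIK3CA E545K and 2 co-culture arrays, both short of the rule. The signal of these genes therefore gives no level beyond the bound that background sets.

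The tests below ran on genes whose signal was above the 30th percentile of their array on at least 4 of the 12 arrays. Of the 48 genes, 32 passed, among them 18 that were above background in no group, and 16 were not tested. The same filter kept 12774 of all named genes (72.2%). A gene can pass it through the group where it is high, so the counts below describe these genes and are no support for a change of the program.

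The comparison of the lines grown alone asked how the HER2 L755S cells differed from the PIK3CA E545K cells. The squamous genes went in both directions. HER2 L755S cultures had far less CASP14 and DMKN and less SPRR1A and SPRR1B, and they had more PPL, LYPD3, GRHL2 and SPRR2D. In limma, 17 of the 32 tested genes (53.1%) had an adjusted p under 0.05, against 59.4% of all genes tested, so their share of calls was near the background of this comparison. Of these, 10 were higher in HER2 L755S, against 30% of all genes, and 7 were lower, against 29.4%. A call with a difference of at least 1 was reached by 13 of the 32 (40.6%), against 21.2% of all genes. Arrays did not overlap in 12 of the 32, against 52.9% of all genes. The median absolute difference was 0.42 over the tested genes and 0.44 over all genes. Among the 14 genes above background, 4 were higher, 6 lower and 4 not called, so 71.4% were called. This was near the share among brighter genes, 71.1% of all genes kept by a filter at the 50th percentile.

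The first 9 genes by role are the SPRR genes, whose small proline-rich products are cross-linked into the envelope. SPRR1A gave 9.66, 9.28, 9.69 and 10.92 on the HER2 L755S arrays, against 11.21, 11.14, 11.09 and 10.82 on the PIK3CA E545K arrays. HER2 L755S replicate 4 reached into the PIK3CA E545K range and the other 3 lay below it. SPRR1A was 2.26-fold lower in HER2 L755S (difference -1.18 ± 0.25 SE, limma adjusted p = 0.000246). SPRR1B gave 6.43, 5.67, 6.28 and 6.84 on the HER2 L755S arrays, all at or under background, against 7.75, 7.9, 7.78 and 7.47 on the PIK3CA E545K arrays. The groups did not overlap, and SPRR1B was at least 1.7-fold lower in HER2 L755S (measured difference -1.42 ± 0.21, adjusted p = 3.29e-06). At-least folds set the dim group at the higher of each array's background level and its own signal.

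SPRR2D went the other way. It gave 6.53, 7.55, 7.88 and 8.56 on the HER2 L755S arrays, against 6.04, 5.26, 5.65 and 6.07 on the PIK3CA E545K arrays. Every HER2 L755S array was above every PIK3CA E545K array, with a spread of 0.85 (SD) among the HER2 L755S arrays. The gene was at least 2.42-fold higher in HER2 L755S (measured difference 1.87 ± 0.29, adjusted p = 5.67e-06). SPRR2A gave 5.4, 5.42, 6.29 and 6.87 on the HER2 L755S arrays, against 4.63, 4.26, 4.26 and 4.5 on the PIK3CA E545K arrays. It was also higher (1.58 ± 0.24, adjusted p = 4.65e-06), and so was SPRR2E (0.46 ± 0.18, adjusted p = 0.0341), but both were at background in both groups, so no fold is given. The SPRR2E call was lost without HER2 L755S replicate 2 or 4 and without PIK3CA E545K replicate 2, 3 or 4 (adjusted p between 0.0509 and 0.129). The SPRR2 genes are near-identical copies, and a probe set can take up RNA of a neighbouring copy, so the SPRR2 member behind these signals is uncertain. SPRR2G and SPRR4 were tested and not called, and SPRR2F and SPRR3 were too low to test.

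These genes lie close together on chromosome 1, in the epidermal differentiation complex. In the RefSeq order (GRCh38.p14) IVL, SPRR4, SPRR1A, SPRR3, SPRR1B, SPRR2D, SPRR2A, SPRR2E, SPRR2F and SPRR2G come in this order, with 0 other protein-coding genes between SPRR1B and SPRR2D, and 1 each between IVL and SPRR4 and between SPRR2A and SPRR2E. Along this run, IVL, SPRR1A and SPRR1B were lower in HER2 L755S and SPRR2D, SPRR2A and SPRR2E were higher, so the direction turned between neighbouring genes. IVL gave 4.22, 4.42, 4.4 and 4.84 on the HER2 L755S arrays, against 5.65, 6.47, 6.41 and 5.5 on the PIK3CA E545K arrays. It was lower without overlap (-1.54 ± 0.21, adjusted p = 9.86e-07), with every HER2 L755S array at background and 2 PIK3CA E545K arrays above it.

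**Figure D2:**
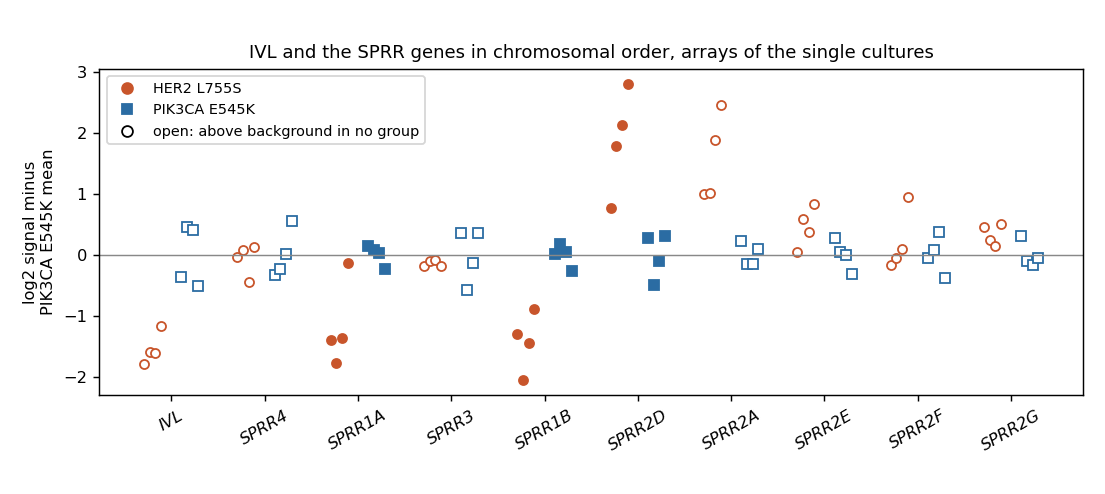
IVL and the SPRR genes in chromosomal order (horizontal axis), each array's log2 signal minus the mean of the 4 PIK3CA E545K arrays (vertical axis), HER2 L755S left and PIK3CA E545K right for each gene; open symbols mark genes above background in no group. IVL, SPRR1A and SPRR1B lie under 0 in HER2 L755S (mean differences -1.54, -1.18 and -1.42) and SPRR2D and SPRR2A above it (1.87 and 1.58).

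The promoters of these neighbours are shown because the genes lie close together and differ in direction, and that of CASP14 because its signal differed most between the lines. Each is the 250 bases before the annotated start, read 5′ to 3′ on the strand of the gene, from RefSeq on GRCh38.p14. The windows are chr1:152908296-152908545 for IVL, chr1:152983831-152984080 for SPRR1A, chr1:153030953-153031202 for SPRR1B, all on the plus strand, chr1:153057513-153057762 on the minus strand for SPRR2A, and chr19:15049230-15049479 on the plus strand for CASP14. SPRR2D and SPRR2E have no window among the promoters used here. Of the neighbours higher in HER2 L755S only SPRR2A is therefore shown, and it was above background in no group. Capitals mark matches to the AP-1 motif TGANTCA and to the TATA box TATAAA.
IVL: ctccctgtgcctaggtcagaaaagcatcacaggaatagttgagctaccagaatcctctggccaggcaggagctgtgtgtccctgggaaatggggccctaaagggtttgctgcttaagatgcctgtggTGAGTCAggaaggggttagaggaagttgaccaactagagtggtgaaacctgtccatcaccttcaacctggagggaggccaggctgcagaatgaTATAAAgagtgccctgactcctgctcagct
SPRR1A: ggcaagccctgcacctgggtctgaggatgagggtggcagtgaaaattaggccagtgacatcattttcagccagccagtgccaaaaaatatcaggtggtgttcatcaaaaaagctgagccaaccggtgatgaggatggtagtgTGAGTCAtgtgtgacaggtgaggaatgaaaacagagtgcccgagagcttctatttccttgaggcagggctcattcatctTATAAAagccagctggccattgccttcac
SPRR1B: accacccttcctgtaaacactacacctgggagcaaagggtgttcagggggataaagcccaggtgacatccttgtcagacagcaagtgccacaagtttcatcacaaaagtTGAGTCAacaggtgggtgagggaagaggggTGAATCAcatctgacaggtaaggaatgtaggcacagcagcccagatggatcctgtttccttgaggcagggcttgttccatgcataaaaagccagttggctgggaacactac
SPRR2A: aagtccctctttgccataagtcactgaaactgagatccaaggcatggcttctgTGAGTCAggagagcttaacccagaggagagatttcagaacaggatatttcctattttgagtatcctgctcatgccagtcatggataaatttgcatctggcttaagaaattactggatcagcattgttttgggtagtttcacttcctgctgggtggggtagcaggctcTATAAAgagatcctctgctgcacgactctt
CASP14: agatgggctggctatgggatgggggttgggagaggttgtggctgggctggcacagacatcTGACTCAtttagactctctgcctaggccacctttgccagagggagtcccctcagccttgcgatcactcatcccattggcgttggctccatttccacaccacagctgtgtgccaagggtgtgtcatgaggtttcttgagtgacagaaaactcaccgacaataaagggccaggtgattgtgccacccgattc

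All 5 windows held TGANTCA, 2 times in SPRR1B and 1 time in each of the others, and IVL, SPRR1A and SPRR2A held TATAAA. Both strands were searched, and no matches of these motifs overlap in the 5 windows. The motif TGANTCA was found in 17 of the 49 windows of the listed genes (38 of 50 genes have a window in the RefSeq table), against 6.57% of 35116 windows of all genes. TATAAA was in 16 of the 49, against 10.7%. Of 3 further motifs, AGGAAGT (ETS factors) was in 5 windows against 7.01%, GTAAACA (FOXO factors) in 3 against 2.98% and AACNGGTT (grainyhead factors) in 3 against 1.49%. SPRR1A and SPRR1B were identical at 64.2% of the positions of their alignment, gaps counted, and the other pairs of the 5 windows at 43.8% to 51.4%. A match is a description of the letters and shows no binding.

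Among the other envelope proteins the differences were large and of both signs. DMKN gave 11.67, 11.62, 11.89 and 12.13 on the HER2 L755S arrays, against 14.42, 14.87, 14.83 and 14.5 on the PIK3CA E545K arrays. The groups were far apart, and DMKN was 7.11-fold lower in HER2 L755S (-2.83 ± 0.11, adjusted p = 4.13e-16). PPL, the scaffold protein periplakin, gave 10.11, 10.39, 10.32 and 10.48 on the HER2 L755S arrays, against 7.59, 7.59, 7.88 and 8 on the PIK3CA E545K arrays. It was 5.9-fold higher in HER2 L755S (2.56 ± 0.14, adjusted p = 1.23e-13), with no overlap. Its partner in the scaffold, EVPL, averaged 7.17 ± 0.38 in HER2 L755S and 7.59 ± 0.15 in PIK3CA E545K (SD, n = 4 each). EVPL was 1.33-fold lower with overlapping arrays (-0.41 ± 0.17, adjusted p = 0.0384), and without HER2 L755S replicate 1 the difference was -0.236 and was not called (adjusted p = 0.191). The EVPL call was also lost without PIK3CA E545K replicate 1, 2 or 4 (adjusted p between 0.0612 and 0.0992).

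LYPD3 gave 9.99, 9.67, 10.02 and 10.46 on the HER2 L755S arrays, against 7.42, 7.52, 7.16 and 7.3 on the PIK3CA E545K arrays. It was the most raised of the 32 tested genes in HER2 L755S, 6.45-fold (2.69 ± 0.17, adjusted p = 5.07e-12), and no overlap. TMEM40 gave 9.7, 10.09, 9.94 and 10.08 on the HER2 L755S arrays, against 10.56, 10.42, 10.11 and 10.44 on the PIK3CA E545K arrays, a 1.35-fold lower level (-0.43 ± 0.12, adjusted p = 0.00384). CNFN averaged 6.99 ± 0.1 in HER2 L755S and 6.65 ± 0.23 in PIK3CA E545K, a difference of 0.34 (95% interval 0.04 to 0.65) that missed the threshold (adjusted p = 0.0515). DMKN lies between KRTDAP and SBSN on chromosome 19 with 0 protein-coding genes between them. KRTDAP (0.9 ± 0.21, adjusted p = 0.000759) and SBSN (1.08 ± 0.23, adjusted p = 0.000249), both secreted proteins of suprabasal keratinocytes, were higher in HER2 L755S where DMKN was lower, but both were at background in both groups and their arrays overlapped.

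CASP14 had the largest difference of the 32 tested genes. It gave 4.78, 4.32, 3.51 and 4.43 on the HER2 L755S arrays, against 12.16, 12.24, 12.95 and 12.25 on the PIK3CA E545K arrays. The HER2 L755S values were all at background, so the gene was at least 43.3-fold lower there (measured difference -8.14 ± 0.38, adjusted p = 1.34e-14). Its main known substrate, filaggrin, was at background in both lines: FLG averaged 3.04 ± 0.27 in HER2 L755S and 3.33 ± 0.22 in PIK3CA E545K. CALML3 averaged 7.34 ± 0.3 in HER2 L755S and 7.18 ± 0.26 in PIK3CA E545K and was not called (0.17, 95% interval -0.2 to 0.53). None of the 4 kallikreins tested passed the threshold, with differences between -0.32 and 0.22.

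Of the protease inhibitors, neither PI3 (-0.31, 95% interval -0.75 to 0.13) nor SLPI (-0.15, 95% interval -0.35 to 0.06) was called between the lines. A2ML1, an inhibitor of the alpha-2-macroglobulin family, gave 7.07, 6.21, 6.51 and 6.73 on the HER2 L755S arrays, against 5.32, 5.25, 5.38 and 4.69 on the PIK3CA E545K arrays. It was higher without overlap (1.47 ± 0.22, adjusted p = 3.86e-06), but passed background on 1 HER2 L755S array alone.

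Of the transcription factors, only GRHL2 was above background by the rule. GRHL2 gave 12.61, 12.64, 12.76 and 12.44 on the HER2 L755S arrays, against 11.46, 11.61, 11.43 and 11.42 on the PIK3CA E545K arrays. This grainyhead-like factor of epithelial junction genes was 2.2-fold higher in HER2 L755S (1.13 ± 0.1, adjusted p = 1.69e-09). ZNF750, a factor of late epidermal differentiation, gave 5.3, 6.47, 7.23 and 7.04 on the HER2 L755S arrays, against 4.56, 4.56, 4.27 and 4.18 on the PIK3CA E545K arrays. It was higher without overlap (2.12 ± 0.3, adjusted p = 1.75e-06), and 2 HER2 L755S arrays passed background. GRHL3, the only other factor tested, averaged 5.58 ± 0.16 in HER2 L755S and 5.64 ± 0.12 in PIK3CA E545K (-0.06, 95% interval -0.46 to 0.34). GRHL1, ELF3 and OVOL1 were not tested, with group means between 3.49 and 4.27.

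The array values of these 4 factors are given for completeness, all of them at background. GRHL1 gave 4.22, 3.98, 4.11 and 4.04 in the co-culture, 3.39, 3.43, 3.75 and 3.61 in HER2 L755S and 4.23, 4.49, 4.56 and 3.78 in PIK3CA E545K. ELF3 gave 3.53, 3.93, 3.76 and 3.7 in the co-culture, 4.25, 4.38, 3.98 and 3.95 in HER2 L755S and 3.5, 3.59, 3.54 and 3.43 in PIK3CA E545K. At these levels neither the lower GRHL1 nor the higher ELF3 signal of HER2 L755S was tested. OVOL1 gave 3.3, 3.86, 4.02 and 4.06 in the co-culture, 3.14, 3.79, 3.2 and 3.82 in HER2 L755S and 3.79, 3.55, 3.56 and 4.32 in PIK3CA E545K, with overlap. GRHL3 gave 6.13, 5.63, 5.49 and 6.55 in the co-culture, 5.45, 5.47, 5.79 and 5.59 in HER2 L755S and 5.66, 5.69, 5.74 and 5.46 in PIK3CA E545K, and 2 co-culture arrays stood above the rest.

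**Figure D3:**
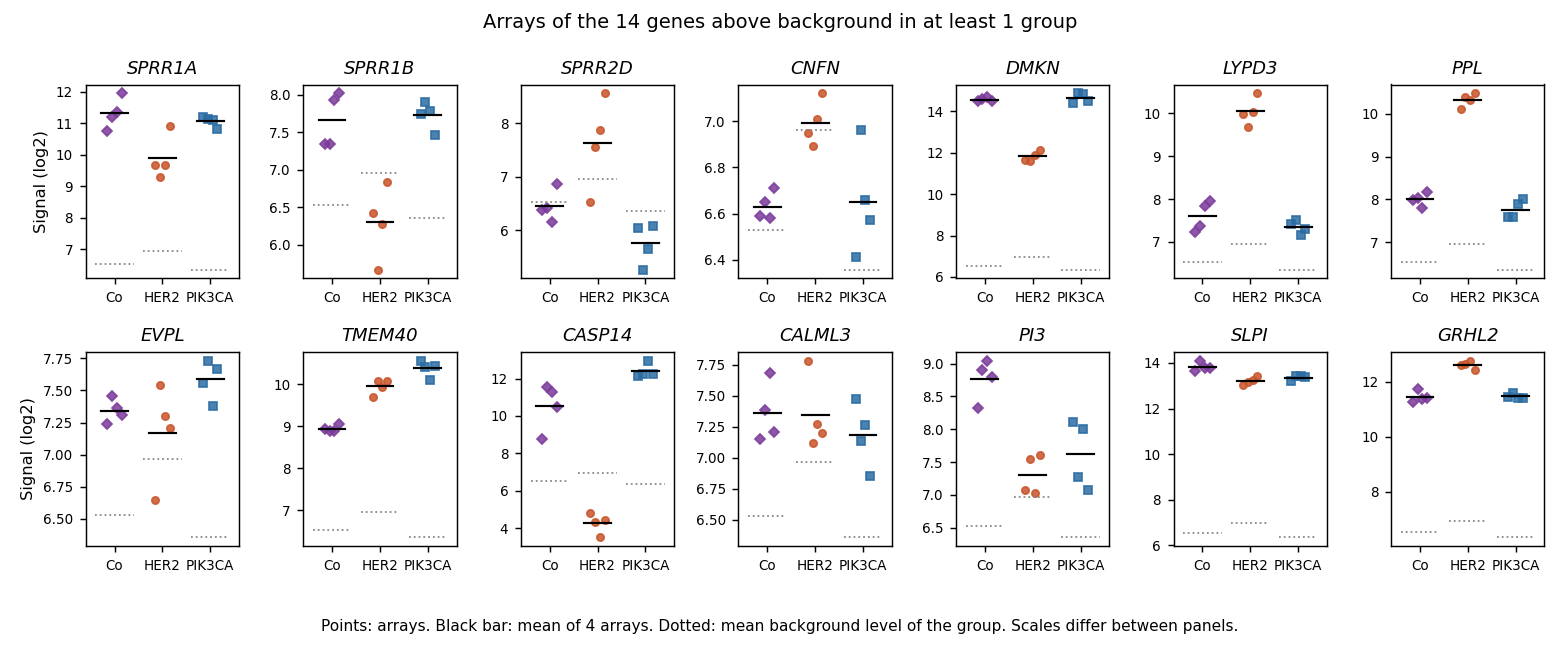
Log2 signal of every array (vertical axes, which differ between panels) for the 14 genes above background in at least 1 group, with co-culture, HER2 L755S and PIK3CA E545K from left to right, the group mean as a bar and the mean background level dotted. In DMKN, LYPD3, PPL, GRHL2 and SPRR1B the co-culture points lie with PIK3CA E545K, in PI3 and SLPI above both lines, and in TMEM40 below both.

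Comparing the co-culture with the HER2 L755S line, which made up most of its cells, asked how far the mixed culture departed from its main component. The co-culture had much less PPL, LYPD3 and GRHL2 and more CASP14, DMKN, SPRR1A and SPRR1B. In limma, 21 of 32 tested genes (65.6%) were called, against 50.9% of all genes tested. Of these, 7 were higher in the co-culture, against 24.9% of all genes, and 14 were lower, against 26%. Among the 14 genes above background, 6 were higher and 6 lower, so 85.7% were called. The share among all genes kept by a filter at the 50th percentile was 63%. The median difference was -0.15 over the tested genes and -0.05 over all genes. Arrays did not overlap in 16 of the 32 genes, against 44.4% of all genes. In bulk RNA, a changed number of cells that express a gene and a changed amount per cell cannot be told apart.

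CASP14 gave 8.77, 11.53, 11.3 and 10.46 on the co-culture arrays, against at most 4.78 on any HER2 L755S array. Co-culture replicate 1 stood below the other 3 and still far above background. The gene was at least 11.7-fold higher in the co-culture (measured difference 6.25 ± 0.38, adjusted p = 3.03e-12). DMKN gave 14.48, 14.61, 14.71 and 14.49 on the co-culture arrays, 6.71-fold above HER2 L755S (2.75 ± 0.11, adjusted p = 1.32e-15). SPRR1A gave 10.77, 11.21, 11.36 and 11.95 there, 2.71-fold higher (1.44 ± 0.25, adjusted p = 3.46e-05), although HER2 L755S replicate 4 overlapped the lowest co-culture. SPRR1B gave 7.35, 7.34, 7.93 and 8.02, at least 1.62-fold higher (measured 1.35 ± 0.21, adjusted p = 9.38e-06).

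LYPD3, PPL, GRHL2 and SPRR2D, which were higher in HER2 L755S than in PIK3CA E545K, were lower in the co-culture than in HER2 L755S. LYPD3 gave 7.23, 7.37, 7.84 and 7.95 on the co-culture arrays, 5.41-fold lower than in HER2 L755S (-2.44 ± 0.17, adjusted p = 5.02e-11). PPL gave 7.98, 8.04, 7.8 and 8.17, 5.02-fold lower (-2.33 ± 0.14, adjusted p = 1.28e-12). GRHL2 gave 11.25, 11.74, 11.37 and 11.42, 2.25-fold lower (-1.17 ± 0.1, adjusted p = 1.7e-09). No co-culture array reached a HER2 L755S array for any of these 3 genes. SPRR2D gave 6.37, 6.42, 6.15 and 6.86, lower with overlap (measured difference -1.18 ± 0.29, adjusted p = 0.00141), and as only 1 of these 4 arrays passed background, no fold is given. ZNF750, also higher in HER2 L755S than in PIK3CA E545K but above background in no group, was not called in the co-culture against HER2 L755S (-0.56, 95% interval -1.17 to 0.06, adjusted p = 0.127).

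The remaining calls against HER2 L755S were mostly at background. A2ML1 (-1.4), SPRR2A (-1.16), SBSN (-0.84), KRTDAP (-0.83), KLK5 (-0.5), SPRR2G (-0.49), SPRR2E (-0.47) and TGM3 (-0.43) were lower and IVL (0.75) was higher, all above background in no group. CNFN, above background in the co-culture, was also lower (-0.36 ± 0.15, adjusted p = 0.0478), a call that was lost under most alternatives, among them leaving out any 1 co-culture array (adjusted p between 0.0573 and 0.0958). Of these, SPRR2E was lost without HER2 L755S replicate 2 or 4 or co-culture replicate 2, 3 or 4, SPRR2G without co-culture replicate 4, TGM3 without HER2 L755S replicate 3 or co-culture replicate 3, and KLK5 without co-culture replicate 2 or 3 (adjusted p between 0.0514 and 0.118). KLK5 passed the low-signal filter in only 8 of the 12 fits that left out 1 array and was not tested in the others. Its call was also lost with quantile normalization (adjusted p = 0.0592). EVPL (0.17, 95% interval -0.18 to 0.52) and CALML3 (0.01, 95% interval -0.35 to 0.38) were not called.

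Against the PIK3CA E545K line, which made up the smaller share of the cells, the co-culture differed in few of these genes. In limma, 6 of 32 tested genes (18.8%) were called, against 25.6% of all genes tested. Of these, 3 were higher, against 11.1% of all genes, and 3 were lower, against 14.6%. Arrays did not overlap in 9 of the 32, against 28.3% of all genes. CASP14 was 3.69-fold lower in the co-culture (-1.88 ± 0.38, adjusted p = 0.000702), and all 4 co-culture arrays lay below all 4 PIK3CA E545K arrays. IVL gave 5.39, 4.96, 5.39 and 5.13 on the co-culture arrays. It was lower (-0.79 ± 0.21, adjusted p = 0.00633) and ZNF750 higher (1.56 ± 0.3, adjusted p = 0.000383), and neither was above background in these groups. ZNF750 gave 5.78, 5.5, 5.91 and 6.62 on the co-culture arrays, of which 1 passed background. The other 3 calls were TMEM40, PI3 and SLPI, which are described with the genes outside both lines.

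Several genes that separated the lines were close to the PIK3CA E545K level in the co-culture. The difference from PIK3CA E545K was -0.08 for DMKN (95% interval -0.31 to 0.15), -0.03 for GRHL2 (-0.25 to 0.18), 0.23 for PPL (-0.05 to 0.52), 0.25 for LYPD3 (-0.11 to 0.62), -0.07 for SPRR1B (-0.5 to 0.37) and 0.26 for SPRR1A (-0.25 to 0.77), none of them called. These intervals still allow small differences. SPRR2D lay in between, 0.69 above PIK3CA E545K (95% interval 0.1 to 1.29, adjusted p = 0.0837), without overlap of arrays. It was called when only these 2 groups were fitted (adjusted p = 0.00791) and without HER2 L755S replicate 1 or 4 (adjusted p = 0.0206 and 0.0333). The comparisons share arrays, so their differences are not independent of each other.

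**Figure D4:**
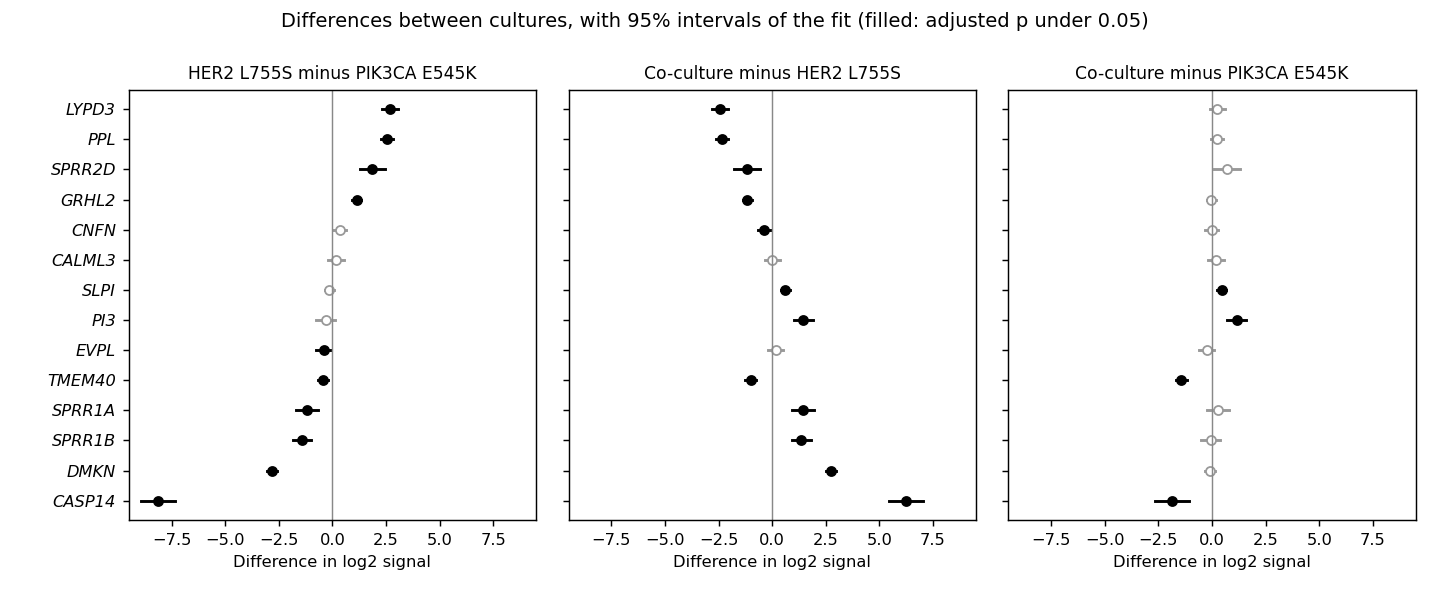
Differences in log2 signal with 95% intervals (horizontal axes) for the 14 genes above background in at least 1 group, in HER2 L755S minus PIK3CA E545K (left), co-culture minus HER2 L755S (middle) and co-culture minus PIK3CA E545K (right); filled symbols have an adjusted p under 0.05. LYPD3, PPL and GRHL2 are positive on the left, negative in the middle and near 0 on the right, and DMKN and SPRR1B have the opposite signs on the left and in the middle.

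A mixture of cells that kept the level of each line would show a blend of 75% HER2 L755S and 25% PIK3CA E545K signal on the linear scale. Against that blend, PPL, LYPD3, GRHL2, SPRR2D and TMEM40 were too low in the co-culture, and DMKN, PI3, SPRR1A, SPRR1B and SLPI were too high. Of the 32 tested genes, 17 were called (53.1%), against 40.8% of all genes tested. Of these, 5 were higher, against 18.5% of all genes, and 12 were lower, against 22.3%. Of the 12 lower calls, 7 were of genes above background in no group (A2ML1, SPRR2A, KRTDAP, SBSN, KLK5, SPRR2G and TGM3), and the last 3 and SBSN each lost the call when any 1 of 3 arrays was left out (adjusted p between 0.0503 and 0.119). KLK5 was tested in only 8 of the 12 fits that left out 1 array. The blend rests on signal per culture and takes the RNA yield of both lines as equal, which was not tested.

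LYPD3 was 4.27-fold under the blend (-2.09 ± 0.17, adjusted p = 1.54e-09) and PPL 3.98-fold (-1.99 ± 0.13, adjusted p = 5.18e-11). GRHL2 was 1.94-fold under it (-0.96 ± 0.1, adjusted p = 4.46e-08). SPRR2D was under it by a measured 0.89 on the log2 scale (-0.89 ± 0.28, adjusted p = 0.0122), with 1 of 4 co-culture arrays and 0 PIK3CA E545K arrays above background. A2ML1, with 4.64, 5.22, 5.34 and 5.71 on the co-culture arrays, was under the blend as well (-1.15 ± 0.21, adjusted p = 0.000109), at background. Above the blend, DMKN was 2.66-fold higher (1.41 ± 0.1, adjusted p = 1.05e-10) and SPRR1A 2.06-fold (1.04 ± 0.21, adjusted p = 0.000421). SPRR1B was above the blend by a measured 0.85 ± 0.18 (adjusted p = 0.000626). It was at background in HER2 L755S, and with that line set at its background level the excess was at least 1.38-fold.

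CASP14, IVL and ZNF750 differed between the lines by over 1 and were not called against the blend. The CASP14 co-culture mean differed from the blend by 0.1 (95% interval -0.69 to 0.89, adjusted p = 0.867). That value rested on co-culture replicate 1, without which it was 0.68 and called (adjusted p = 0.0433). IVL (0.18 ± 0.18, adjusted p = 0.449) and ZNF750 (-0.25 ± 0.29, adjusted p = 0.531) were above background in no group. On a scale where the PIK3CA E545K level is 0% and the HER2 L755S level is 100%, taken linearly, the co-culture stood at 73.2% for CASP14, 64.4% for IVL and 58.4% for ZNF750. It stood at 3.52% for LYPD3, 3.59% for PPL, -1.97% for GRHL2, 6.48% for DMKN, 7.16% for SPRR1B, 23.1% for SPRR2D and -35.3% for SPRR1A. Over all genes with a called difference of at least 1, the median position was 18.2% for the 1150 higher in HER2 L755S and 42.9% for the 1563 lower in HER2 L755S. The positions are a description without a test, and those of genes at background in a line (CASP14, SPRR1B, SPRR2D, IVL and ZNF750) rest on a signal with no level beyond background.

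**Figure D5:**
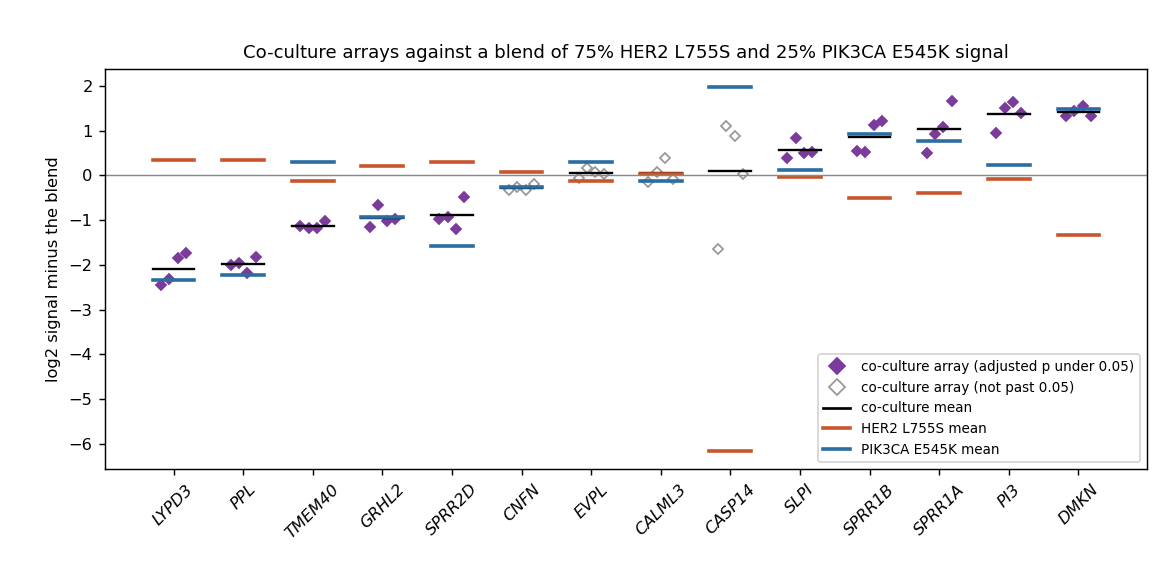
Log2 signal of each co-culture array minus the blend of 75% HER2 L755S and 25% PIK3CA E545K signal (vertical axis) for the 14 genes above background in at least 1 group, with the means of the co-culture and of each line as bars. The co-culture lies under the blend for LYPD3 (-2.09) and PPL (-1.99) and above it for DMKN (1.41) and PI3 (1.37), and the CASP14 arrays scatter on both sides.

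In 3 of the tested genes the co-culture was called outside both lines (adjusted p under 0.05), 9.38% of 32 against 1.86% of all genes tested. Means of other genes, SPRR1A and GRHL2 among them, also lay outside both lines and were not called. These were the protease inhibitors PI3 and SLPI, both higher (2 genes, against 1.01% of all genes), and TMEM40, lower (1 gene, against 0.845%). PI3 gave 8.33, 8.9, 9.04 and 8.79 on the co-culture arrays, against 7.07, 7.54, 7.03 and 7.61 in HER2 L755S and 8.11, 7.27, 8.01 and 7.08 in PIK3CA E545K. Every co-culture array was above all 8 arrays of the lines grown alone. PI3 was 2.75-fold higher than in HER2 L755S (1.46 ± 0.21, adjusted p = 4.55e-06) and 2.22-fold higher than in PIK3CA E545K (1.15 ± 0.21, adjusted p = 0.000285). The adjusted p for lying outside both was 0.00287.

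SLPI gave 13.64, 14.09, 13.76 and 13.78 on the co-culture arrays, against 13.02, 13.16, 13.24 and 13.44 in HER2 L755S and 13.19, 13.43, 13.44 and 13.38 in PIK3CA E545K. The groups did not overlap, and SLPI was 1.52-fold higher than in HER2 L755S (0.6 ± 0.1, adjusted p = 2.1e-05) and 1.37-fold higher than in PIK3CA E545K (0.46 ± 0.1, adjusted p = 0.0013). Its adjusted p for lying outside both was 0.0122, and the call was lost without PIK3CA E545K replicate 1 (adjusted p = 0.0625) or without co-culture replicate 2 (adjusted p = 0.0726). Elafin and SLPI both carry the whey acidic protein fold and inhibit neutrophil elastase. Their genes lie near each other on chromosome 20, with 2 protein-coding genes between them in RefSeq.

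TMEM40 gave 8.93, 8.9, 8.89 and 9.05 on the co-culture arrays, below every array of either line. It was 2.01-fold lower than in HER2 L755S (-1.01 ± 0.12, adjusted p = 2.41e-07) and 2.72-fold lower than in PIK3CA E545K (-1.44 ± 0.12, adjusted p = 8.07e-09). The adjusted p for lying outside both was 1.44e-05.

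Genes of related programs were counted from lists. Of 22 late envelope and related genes (LORICRIN, the LCE genes, TCHH, TCHHL1, KPRP and SMCP), 3 were above background, LCE1C, LCE1E and LCE4A. This stands against 51.6% of all named genes. Between the lines 0 of 9 tested were called, against 59.4% of all genes tested. LCE1C and LCE1E averaged 11.02 and 13.12 in HER2 L755S and 11.04 and 13.07 in PIK3CA E545K. Whether these probe sets also take up RNA of other LCE genes was not tested. LORICRIN, the main protein of the epidermal envelope, averaged 3.86 ± 0.17 in the co-culture, 4.01 ± 0.19 in HER2 L755S and 3.87 ± 0.12 in PIK3CA E545K. Of 15 further regulators of squamous differentiation (transcription factors and the receptors NOTCH1, NOTCH2 and NOTCH3), 14 were tested. In HER2 L755S 9 were higher, NOTCH1 and NOTCH2 among them, and 1 was lower (against 30% and 29.4% of all genes). The median difference was 0.69 against 0.05 over all genes. The lower gene was VDR, which was above background in every group. Of the higher genes, MAF and CEBPA were above background in no group. EHF averaged 13.66 ± 0.06 in HER2 L755S and 10.29 ± 0.27 in PIK3CA E545K (3.37 ± 0.13 SE), and PRDM1 and KLF5 differed by 1.72 and 1.44. KLF4 was above background on 0 PIK3CA E545K arrays and was at least 3.97-fold higher in HER2 L755S (measured 2.37 ± 0.2). In the co-culture, 1 of these 14 regulators was higher and 9 were lower than in HER2 L755S (against 24.9% and 26% of all genes). Against PIK3CA E545K, 0 were higher and 3 lower (against 11.1% and 14.6%).

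Of a list of desmosome and other junction genes, 10 were tested, with 6 higher and 2 lower in HER2 L755S. This stands against 30% and 29.4% of all genes, shares that hold for each list in this paragraph. DSG1 and DSC1 were at background in every group, and so was PKP1, which was among those called higher. DSG3 (2.07 ± 0.09) and the desmosome linker DSP (1.08 ± 0.06) were higher. CLDN4 (measured -4.31 ± 0.19) and GJB2 (measured -4.05 ± 0.18) were above background on 0 HER2 L755S arrays and were at least 6.33-fold and 4.91-fold lower there. In the co-culture, 2 were higher and 6 lower than in HER2 L755S (against 24.9% and 26% of all genes). Of 9 tested genes of a barrier list (lipid genes and the membrane protease gene ST14), 2 were higher and 3 lower in HER2 L755S. Among them were the lipid transporter ABCA12 (-3.81 ± 0.1), the fatty acid elongase ELOVL4 (-1.52 ± 0.17), the lipase cofactor ABHD5 (2.66 ± 0.15) and ST14 (-0.27 ± 0.08). Of 13 other proteases and inhibitors of cornification, 3 were higher and 4 lower. The cathepsin CTSV (measured -4.43 ± 0.16) and its inhibitor CST6 (measured -3.27 ± 0.22) were also at background on every HER2 L755S array, and were at least 5.61-fold and 1.6-fold lower there.

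Marker genes of cell types were measured alongside. All 6 measured basal markers (KRT5, KRT14, CDH3, ITGB4, ITGA6 and TRIM29) were above background in every group. The log2 of their summed linear signals was 17.72 to 17.77 in the co-culture, 17.83 to 17.91 in HER2 L755S and 18.06 to 18.15 in PIK3CA E545K. Of 9 luminal markers, 5 were above background, and ESR1, PGR, KIT and FOXA1 were not. The luminal sum was 15.67 to 15.86 in the co-culture, 16.42 to 16.6 in HER2 L755S and 15.43 to 15.61 in PIK3CA E545K. Of 9 mesenchymal markers, 4 were above background in the co-culture, 3 in HER2 L755S and 5 in PIK3CA E545K, and their sum was 12.62 to 12.84 in the co-culture, 11.21 to 11.51 in HER2 L755S and 12.59 to 13.09 in PIK3CA E545K. Vimentin (VIM) was far lower in HER2 L755S than in PIK3CA E545K (-4.49 ± 0.11) and decorin (DCN) far higher (3.62 ± 0.18). The blood markers PTPRC, CD3E and HBB and all 3 measured melanocyte markers were at background, and CD14 was above it in the co-culture and in PIK3CA E545K. The basal, luminal and mesenchymal sums each differed between the lines without overlap. Each sum is weighted towards its brightest genes, among them KRT5 (mean 17.33 in HER2 L755S and 17.44 in PIK3CA E545K) and KRT19 (16.35 and 15.1). For the mesenchymal sum these were VIM (8.19 and 12.68) and DCN (10.7 and 7.07). Within the lists the markers went both ways: KRT8 (2.32 ± 0.11), KRT19 (1.25 ± 0.07), MUC1 (2.93 ± 0.17) and GATA3 (0.93 ± 0.17) were higher in HER2 L755S and KRT18 (-2.32 ± 0.09) lower, as was FOXA1 (-0.68 ± 0.16) at background. ITGA6 (-2.36 ± 0.1) and ITGB4 (-1.41 ± 0.1) were lower and TRIM29 (1.1 ± 0.09), KRT14 (0.6 ± 0.15) and CDH3 (0.59 ± 0.08) higher. The part of these markers in the differences of the squamous genes was not tested.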

How the data were processed

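Per the labels' protocols, RNA of 12 cultures was purified on columns, and 5 µg of total RNA went into a whole-transcript labelling kit. Per the submitters' processing notes, the authors used the Transcriptome Analysis Console, and the files they deposited hold log2 signals per probe set. The version, background correction, normalization and genome build are not given in the sources used here. Precision is limited by the number of arrays, 4 in each group.

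Arrays were grouped by their labels. Of 24351 probe sets, 17709 carried exactly 1 gene symbol, and the brightest was used per gene. After the filter on low signal, limma 3.58.1 (R 4.3.3) was fitted to all 12 arrays with 3 group means, empirical Bayes moderation and a trend, two-sided, with Benjamini-Hochberg adjustment over 12774 genes and a threshold of 0.05. The blend was tested with delta-method weights on the moderated standard error. For a gene outside both lines, p is the larger of both contrast p-values. Gene order and promoters come from RefSeq (GRCh38.p14), and motifs were searched in Python 3.11.15. The method was tested on simulated data.

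The genes and lists were chosen with earlier results of these data known. Array values were printed for the genes with the largest called differences in each comparison (up to 10 between the lines, 6 in the others), those outside both lines, those off the blend by at least 0.5, and all transcription factors, with up to 4 genes per further list. Alternatives were other filters, quantile normalization, moderation without trend or robust, a replicate block, fits of 2 groups, a tested margin, other blends and background levels, and leaving out each array.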

Additional observations from a re-analysis of the deposited data

Results flagged for a closer look

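Each group of 4 arrays was searched for an array whose gap to its nearest neighbour exceeded Dixon's 95% critical value as a share of the range of the group. Of 96 groups searched (32 tested genes in 3 groups), 6 held such an array, and chance gives about 1 in 20. Only 1 of the 6 concerned a gene above background there, CASP14 in PIK3CA E545K, where replicate 3 gave 12.95 and the others 12.16 to 12.25.

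The other 5 were at background. SPRR4 gave 4.9 on co-culture replicate 2, against 4.11 to 4.19 on the others. CRNN gave 4.3 on HER2 L755S replicate 3, against 4.85 to 4.91. CALML5 gave 6.88 on HER2 L755S replicate 1, against 5.98 to 6.08. KLK8 gave 6.64 on HER2 L755S replicate 2, against 5.96 to 6.06. KLK13 gave 4.68 on co-culture replicate 3, against 5.02 to 5.06.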

How the results depend on the processing

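Of 1641 values of 84 gene results under the alternatives, 1545 kept their direction and call, 69 lost the call, 10 gained it and 17 turned sign, none of the last called to begin with. With the filter at the 50th percentile, 15 of the genes were tested, and 11 were called between the lines (71.1% of all genes), 12 in the co-culture against HER2 L755S (63% of all genes) and 10 against the blend (52.7% of all genes). Tested against a margin of 0.5, 11 were called in the co-culture against HER2 L755S (17.8% of all genes) and 3 against PIK3CA E545K (3.44%), where PI3 (adjusted p = 0.0794), SLPI and IVL (adjusted p = 1 each) were lost. With the 99th percentile of the controls as background, 8 genes were above it, and with the 30th percentile of all probe sets 32.

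Leaving out 1 array at a time, 31 or 32 of the genes were tested. Between the lines 15 to 17 were called (56.3% to 59.6% of all genes). For the co-culture, 18 to 21 were called against HER2 L755S (47.5% to 50.6%) and 6 to 7 against PIK3CA E545K (21.8% to 27.6%). Against the blend 14 to 17 were called (36.3% to 40.8%) and outside both 2 to 3 (1.19% to 1.83%). The SLPI call outside both was lost also without the trend (adjusted p = 0.118).

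Signs turned for CALML3 against HER2 L755S with quantile normalization (-0.033). For CASP14 against a blend with 65% HER2 L755S the value was -0.379. Leaving out 1 array also turned signs, over ranges of -0.095 to 0.159 for CALML3 and -0.007 to 0.29 for EVPL against HER2 L755S, of -0.055 to 0.164 for CALML3, -0.07 to 0.137 for EVPL and -0.238 to 0.68 for CASP14 against the blend, and of -0.097 to 0.085 for CNFN, -0.132 to 0.031 for GRHL2 and -0.188 to 0.041 for SPRR1B against PIK3CA E545K. The cause was not tested.

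Same-numbered arrays of different groups deviated with correlations of -0.035 to 0.061 (median 0.02), against -0.097 to 0.11 (median -0.004) for other numbers. Whether same-numbered arrays shared a start or a batch is not given in the labels and cannot be told from these overlapping ranges. With a replicate block, 17, 20, 7, 17 and 3 of 32 genes were called in the 5 comparisons, in the order above. The shares of all genes called were 59.5%, 50.9%, 26.1%, 41.2% and 1.91%. In that fit SPRR2D was called against PIK3CA E545K (adjusted p = 0.0485).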
